A study of Homo sapiens with 2 samples.

Results

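Replication-dependent histone genes encode the bulk histones of chromatin, the linker histone H1 and the core histones H2A, H2B, H3 and H4. They were taken here as every gene whose name, or one of whose names in a joined row, starts with HIST1H, HIST2H, HIST3H or HIST4H, whatever its level. The rule found 73 genes, and 70 of them had a row of their own in both tables, among 24991 gene names present in both. The 70 genes comprise 6 of class H1, 17 of H2A, 19 of H2B, 13 of H3 and 15 of H4.

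The study compared the transcriptome of PLC cells, a human liver cancer line, carrying the empty pCDH vector (EV, genotype given as WT) with that of PLC cells with PRSS35 over-expression from the same vector. PRSS35 is a secreted protein of the trypsin-like serine protease family. Both groups were infected with lentivirus and selected with puromycin to make stable cells, and no treatment was given to either. There was 1 library per condition, so that no difference between the conditions has a replicate check, no p-value can be given, and a difference between the stable lines cannot be told apart from one between the libraries.

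Values are FPKM, the number of fragments scaled by effective transcript length and by library depth, with the lower and upper bound that Cufflinks puts around it. The bounds cover error within a library only. PRSS35 itself had an FPKM of 0.643 (bounds 0.445 to 0.841) in EV and 1836 (bounds 1759 to 1912) in PRSS35, in accord with the labels. Of 10 hepatocyte markers, 9 averaged 1 FPKM or more, with SERPINA1 at 2528 and 4239, while albumin (ALB) was as low as 4.05 and 5.21. PTPRC, CD3E and HBB of the blood lineage were listed at 0 in both libraries, the endothelial markers PECAM1, VWF and CDH5 were below 0.03, and lysozyme (LYZ), which is also made by other cells, was at 94.0 and 103.7.

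Cells make these histones mainly in S phase, when newly copied DNA has to be packed into nucleosomes. The genes are short, mostly lack introns and lie in clusters, and many copies of each class encode the same or nearly the same protein. Their transcripts end not in a poly(A) tail but just behind a conserved stem-loop, which is bound by the stem-loop binding protein SLBP and behind which the precursor is cut with the help of the U7 small nuclear ribonucleoprotein. Whether poly(A) RNA was selected before sequencing is not given in the sources used here.

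The stem-loop that sets these transcripts apart was read from the hg19 sequence of the genes. Of the 67 members with an annotated stop codon, 63 held the stem-loop on the coding strand within 100 bases behind the stop, against 2 of 19981 other protein-coding genes, the histone genes H2AX and H3-7. The motif searched was 16 bases long, with GG at the start, CTTTT at bases 5 to 9, AG at bases 11 and 12, CC at the end and any base at the other positions. It started between 22 and 67 bases behind the stop, with a median of 36. The motif was not found in the window for HIST1H2BI, HIST1H3E, HIST1H4L and HIST2H2BF. The sites of the genes on which the results below turn are shown with 5 bases on each side and the motif in capitals, in the 5′ to 3′ direction of the transcript.

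HIST1H4J: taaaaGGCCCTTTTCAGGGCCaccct

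HIST1H4K: caaaaGGCCCTTTTTAGGGCCcccac

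HIST2H4A: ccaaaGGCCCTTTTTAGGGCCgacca

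HIST1H3J: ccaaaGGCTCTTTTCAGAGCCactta

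HIST1H1C: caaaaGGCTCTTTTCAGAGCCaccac

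HIST3H2A: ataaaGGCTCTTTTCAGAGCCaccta

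HIST2H2AA3: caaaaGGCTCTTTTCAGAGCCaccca

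HIST1H2BK: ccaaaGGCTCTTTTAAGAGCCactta

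The stem differed by class. All 13 H4 genes with the motif had the stem seen in HIST1H4J, in 9 genes with the loop of HIST1H4J and in 4 with that of HIST1H4K. None of the other 50 genes had that stem. Of these, 38 had the site of HIST1H1C and 9 that of HIST1H2BK, and the remaining 3, HIST1H2AG, HIST1H2AK and HIST2H2AC, each had a form of its own.

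Histone transcripts were detected over a wide range of levels. In each library, 46 of the 73 members were at 1 FPKM or more, 16 in EV and 15 in PRSS35 were at 10 or more, and 17 were listed at 0. Listed at 0 in both were 14 members, among them the testis linker histone HIST1H1T, HIST1H2AA, HIST1H2BA and HIST3H3. Over the 50 members above 0 in both libraries the levels kept much the same order, with a Spearman rho of 0.93 and a Pearson r of 0.93 on the log2 scale. These points come from the same pair of libraries and share the lengths of the genes, so the values are a description only.

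The bulk of the histone FPKM came from few genes. The 5 highest members held 56.1% of the summed FPKM of the 70 members in EV and 54.8% in PRSS35, and the 10 highest held 76.7% and 76.2%. HIST1H4K and HIST1H4J, which encode the core histone H4 and lie at chr6:27798952-27799305 and chr6:27791903-27792258 of hg19, were the highest in both libraries. HIST1H4K was at 138.3 FPKM (bounds 122.8 to 153.9) in EV and 100.2 (bounds 87.1 to 113.4) in PRSS35. HIST1H4J was at 134.4 (bounds 119.1 to 149.6) and 102.0 (bounds 88.8 to 115.1). Within each library the bounds of this pair overlapped.

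Next in EV came HIST1H2BK, an H2B gene at chr6:27106072-27114673, with 112.7 (bounds 106.0 to 119.4) in EV and 97.5 (bounds 91.3 to 103.7) in PRSS35. HIST3H2A, an H2A gene at chr1:228645065-228645560, was at 101.5 (bounds 92.9 to 110.1) and 83.6 (bounds 76.5 to 90.7). Among the linker histones HIST1H1C, at chr6:26055968-26056699, stood alone. It was at 52.1 (bounds 48.2 to 55.9) in EV and 45.6 (bounds 41.6 to 49.7) in PRSS35, and held 98.0% and 97.7% of the H1 total. HIST1H1B followed with 0.681 and 0.683 and HIST1H1E with 0.375 and 0.376. HIST1H1A, HIST1H1D and HIST1H1T were listed at 0 in both libraries.

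In class H2A the next levels were those of the copies HIST2H2AA3, at 45.1 FPKM in EV and 50.6 in PRSS35, and HIST2H2AA4, at 45.1 and 46.1. HIST1H2AC had 24.7 (bounds 21.2 to 28.1) and 31.0 (bounds 27.0 to 34.9). In class H2B, HIST1H2BD was at 28.9 and 21.8 and HIST1H2BJ at 12.7 and 12.1. HIST2H2BC, annotated as a pseudogene, was at 24.0 and 24.9. No H3 gene reached these levels. The highest of class H3, HIST1H3J, had 11.2 (bounds 8.47 to 13.9) and 10.5 (bounds 7.86 to 13.1), and HIST1H3G had 10.3 and 9.08, with overlapping bounds within each library. The median member of H3 was at 3.93 FPKM in EV, below the 6.28 of H2A. It was above the medians of H1, H2B and H4, at 0.188, 0.980 and 1.85.

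**Figure D1:**
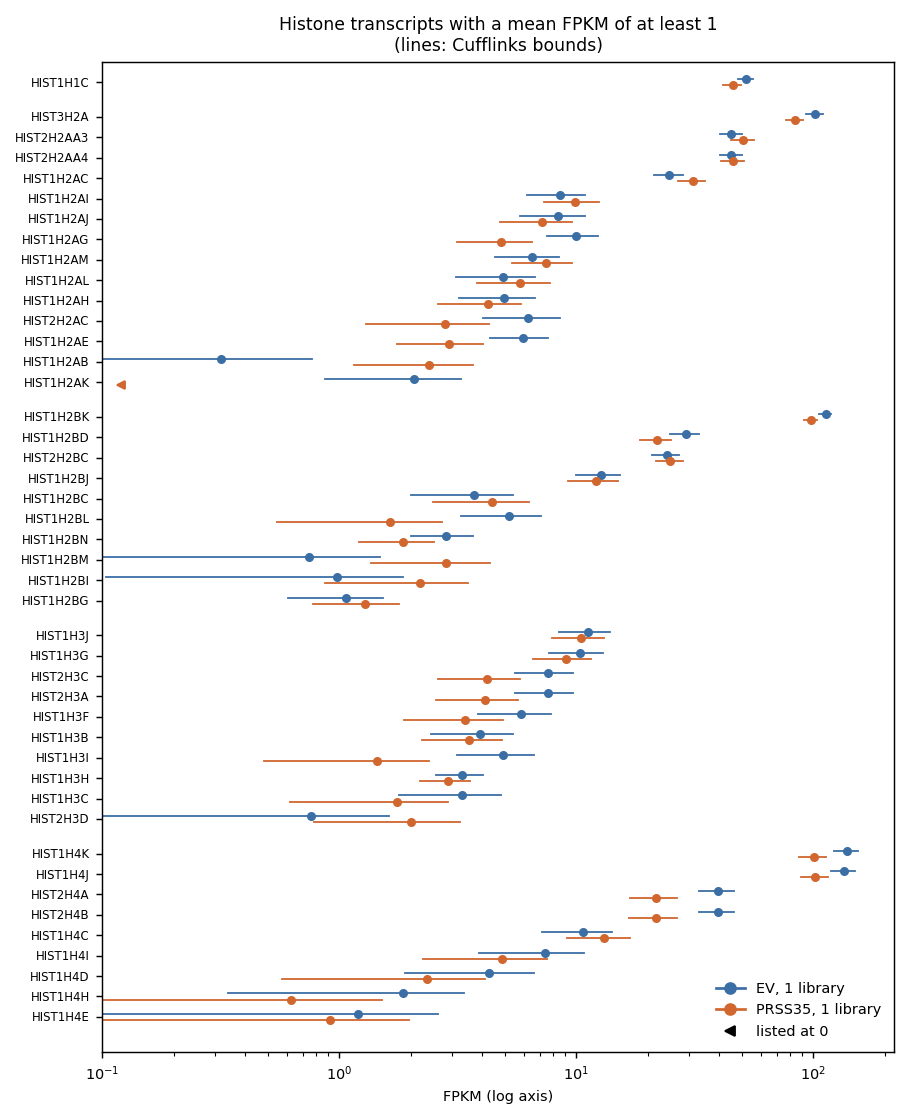
FPKM of the 44 expressed histone genes (mean of 1 FPKM or more) on a log axis, grouped by class, with blue points for EV and orange points for PRSS35 (1 library each) and lines for the Cufflinks bounds, which are cut off at the left edge where they reach below it. HIST1H4K, HIST1H4J, HIST1H2BK and HIST3H2A lie highest. The PRSS35 point lies left of the EV point for 30 of the 44 genes on the deposited scale. Of all 10133 expressed genes, 3983 had a lower value on that scale. When FPKM is divided by its library sum, 14 of the 44 genes and 382 of all 10133 have a lower value.

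FPKM of so short a transcript rests on few fragments, which matters for a comparison of the classes. The bounds give the number of fragments behind a value when they reflect counting error alone. For 16 of 31 annotated members in EV and 17 of 29 in PRSS35 this number was within 0.02 of a whole number. A line through these genes took 273 bases off the length of a row in EV and 275 in PRSS35, and its slope put the depth at 31186694 fragments for EV and 31168945 for PRSS35. In EV the bounds of HIST1H4J, a row of 356 bases, implied an effective length of 74.5 bases, so that 1 fragment was worth 0.430 FPKM and 312 fragments stood behind its 134.4 FPKM. In HIST1H1C, with 732 bases, 1 fragment was worth 0.0704 FPKM and its 52.1 FPKM stood for 739 fragments. For rows where Cufflinks assigned reads between transcripts, the bounds may hold further error and the implied number is then too low.

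**Figure D2:**
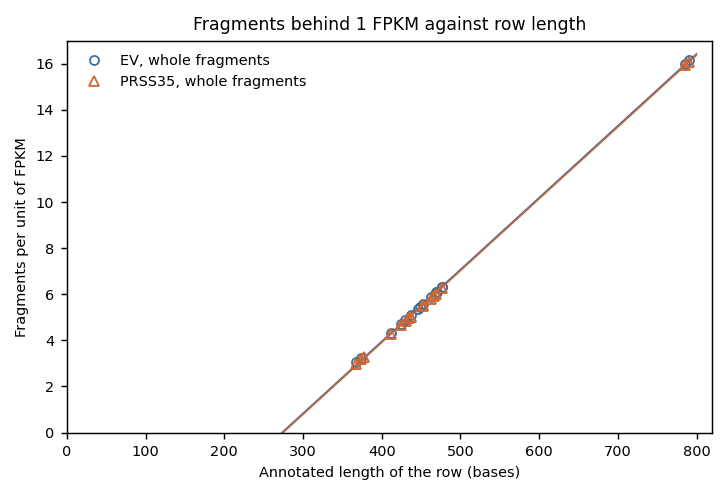
Fragments per unit of FPKM against the annotated length in bases for histone genes whose bounds gave a whole number of fragments, with circles and a blue line for EV and triangles and an orange line for PRSS35. The lines meet the length axis at 273 and 275 bases, and the lines of the libraries nearly coincide.

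Of the 44 expressed members, those whose FPKM averaged 1 or more over the libraries, 30 had a lower value in PRSS35 and 14 a higher one, so 68.2% were lower, against 39.3% of all 10133 expressed genes. Changes are given as log2((PRSS35 FPKM + 1) / (EV FPKM + 1)), a scale that understates the change of low genes. The median of the members was -0.20 and that of all expressed genes 0.06, and with FPKM divided by its sum over the library the medians became 0.35 and 0.61, so that the members' median turned positive and stayed below that of all genes by 0.25. Among the 4527 genes with a mean FPKM between 3.15 and 24.7, the middle range of the members, 34.6% had a lower value and the median was 0.09. For EV, most of the library sum lay in few short rows, as its 10 highest rows made up 59.1% and spanned at most 165 bases. For PRSS35 this did not hold, as its 10 highest rows made up 42.6% and spanned up to 4083 bases. The share of rows under 300 bases was 64.3% for EV and 43.8% for PRSS35. Rows of 300 bases or more summed to 882320 FPKM in EV and 847653 in PRSS35.

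Few members passed 2-fold. HIST1H2AB and HIST1H2BM were higher, 2 of 44, where the background was 1.89% of all expressed genes, and HIST1H2AK, HIST1H3I and HIST1H2BL were lower, 3 of 44, with a background of 1.84%. In either direction the background was 3.73%. The counts depend on the scale. At a pseudocount of 0.1 FPKM, 4 members were higher and 7 lower, against 260 and 234 of all 10133 expressed genes. At 5 FPKM the counts were 0 and 0, against 91 and 90 of all. With FPKM divided by its library sum they were 2 and 0, where 740 of all expressed genes were higher and 94 lower. All 5 genes were low and rested on few fragments. HIST1H2AB, an H2A gene, was at 0.316 FPKM (bounds 0 to 0.764) in EV and 2.40 (bounds 1.15 to 3.65) in PRSS35. That is 2 and 15 fragments, a ratio of 7.50 with an exact 95% interval from counting of 1.74 to 67.6.

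HIST1H2BM, an H2B gene, rose from 0.744 (bounds 0 to 1.49) to 2.83 (bounds 1.35 to 4.30), with 4 and 15 fragments and bounds that overlapped. HIST1H3I, an H3 gene, fell from 4.90 (bounds 3.14 to 6.66) to 1.44 (bounds 0.480 to 2.40), that is from 31 to 9 fragments. HIST1H2BL fell from 5.19 (bounds 3.26 to 7.12) to 1.63 (bounds 0.544 to 2.72), from 29 to 9 fragments. HIST1H2AK had 2.07 (bounds 0.869 to 3.27) in EV and was listed at 0 in PRSS35, where its row was assembled from the reads. Its bounds there are 0 to 0, so its place among members lower by 2-fold and by the bounds rests on that 0. Why an assembled row was listed at 0 was not tested. Of these 5 genes, HIST1H2BM alone had overlapping bounds. The next largest increases in value, of HIST2H3D from 0.759 to 2.01 and of HIST1H2BI from 0.980 to 2.19, stayed under 2-fold on this scale with 3 and 11, and 5 and 11 fragments. Exact 95% intervals of the fragment ratio were 1.19 to 15.5 for HIST1H2BM, 0.122 to 0.625 for HIST1H3I and 0.129 to 0.673 for HIST1H2BL. Those of HIST2H3D and HIST1H2BI, 0.969 to 20.5 and 0.705 to 8.08, included 1. The genes were picked for their large changes, so the intervals are a description only.

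Members that were at 0 in one library and near 1 FPKM in the other lay below the mean of 1 FPKM. HIST2H2AB was at 1.29 (bounds 0.314 to 2.26) in EV, from 7 fragments, and listed at 0 in PRSS35. HIST3H2BB was listed at 0 in EV and at 1.46 (bounds 0.427 to 2.49) in PRSS35, from 8 fragments. These differences have opposite directions.

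By the bounds, 11 of the 44 members were lower in PRSS35 without overlap and 1, HIST1H2AB, was higher, while 14.3% of all expressed genes were lower and 24.7% higher by the same rule. In the middle range of levels the shares were 10.3% and 26.2%. These counts hold on the deposited scale. With FPKM and bounds divided by the library sum, 1 member was lower and 12 were higher, against 1.81% and 87.7% of all expressed genes. Members lower by the deposited bounds were spread over H2A (HIST1H2AE, HIST1H2AG, HIST1H2AK, HIST3H2A), H2B (HIST1H2BK, HIST1H2BL), H3 (HIST1H3I) and H4 (HIST1H4J, HIST1H4K, HIST2H4A, HIST2H4B). The H4 genes named here form pairs with identical coding sequences that can share reads, so the copies of a pair are not separate observations. HIST1H2AE had 5.97 (bounds 4.33 to 7.61) and 2.90 (bounds 1.76 to 4.04). HIST1H2AG had 9.97 and 4.81. HIST2H2AC, with 6.28 in EV and 2.78 in PRSS35, a log2 change of -0.94, had bounds that overlapped.

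**Figure D3:**
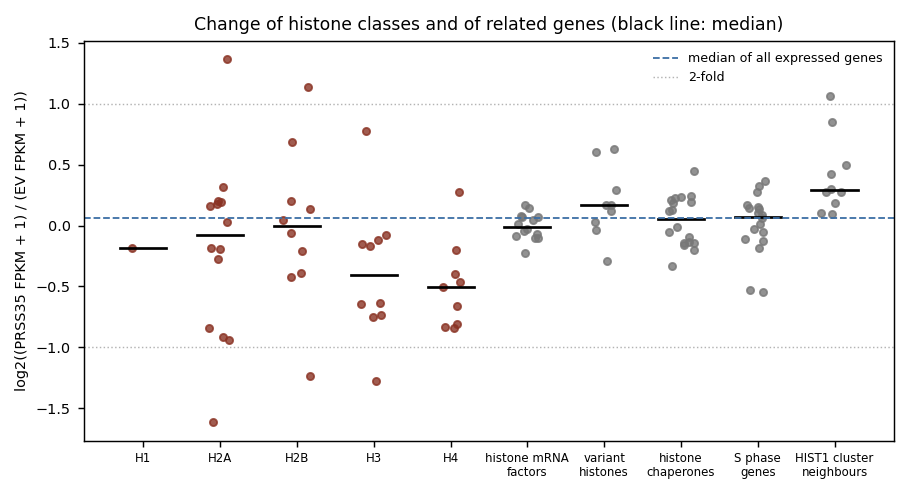
log2 change, PRSS35 over EV with 1 FPKM added, of each expressed gene of the histone classes (red) and of related lists and cluster neighbours (grey), with the median of each as a black line, the median of all expressed genes as a dashed line and 2-fold as dotted lines. The H3 and H4 medians lie at -0.40 and -0.51 and the H2A and H2B medians at -0.08 and -0.01 on the deposited scale, while dividing by the library sum moves the dashed line from 0.06 to 0.61 and the members with it.

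The classes differed in how their members lay. In class H4, whose histone forms the tetramer with H3 at the centre of the nucleosome, 8 of 9 expressed members had a lower value in PRSS35 and the median change was -0.51. In class H3, 9 of 10 had a lower value and the median was -0.40. In H2A and H2B, which form the dimers on either side, 7 of 14 and 5 of 10 were lower, with medians of -0.08 and -0.01. Of all expressed genes 39.3% had a lower value. By bounds without overlap the order was another, with 4 of 9 H4, 1 of 10 H3, 4 of 14 H2A and 2 of 10 H2B members lower. The share of all expressed genes was 14.3% by that rule. H1 had 1 expressed member, HIST1H1C, at -0.19. No test of a difference between the classes is possible with 1 library per condition, and near-identical members of a class can share reads.

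Summed over its members, class H4 had 377.4 FPKM (353.0 to 401.9, 2 counting SD on either side) in EV and 268.6 (248.1 to 289.1) in PRSS35. Class H3 had 60.2 (54.2 to 66.3) and 43.7 (38.6 to 48.9). For these classes the ranges did not overlap, and the log2 ratios were -0.49 and -0.46. The H2A total was 275.5 (262.5 to 288.5) and 258.7 (246.2 to 271.1), that of H2B 194.9 (185.5 to 204.3) and 173.7 (164.8 to 182.6), and that of H1 53.1 (49.3 to 57.0) and 46.7 (42.6 to 50.8), with log2 ratios of -0.09, -0.17 and -0.19. The H2A and H1 ranges overlapped, and those of H2B were apart by less than 1 counting SD. All these ranges take the members as independent, which copies that share reads are not.

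Rows under 300 bases held 64.3% of the library sum in EV and 43.8% in PRSS35, and other rows summed to 882320 and 847653 FPKM. All 5 log2 ratios turned positive when FPKM was divided by its library sum, to 0.22 for H4, 0.25 for H3, 0.62 for H2A, 0.54 for H2B and 0.52 for H1. Against the median of all expressed genes on the same scale, which was 0.61, they lay at -0.39, -0.36, 0.01, -0.06 and -0.08. The division moves the log2 ratios of all classes by the same amount, so their order, with H4 and H3 lowest, could not change. The class totals have nothing added, while 1 FPKM is added for the median gene, so their distance is not strictly comparable between the scales. The change of side of H2A is therefore not read as a result. The total of all 70 members was 961.2 FPKM (931.1 to 991.3) in EV and 791.4 (764.9 to 817.8) in PRSS35, a log2 ratio of -0.28.

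**Figure D4:**
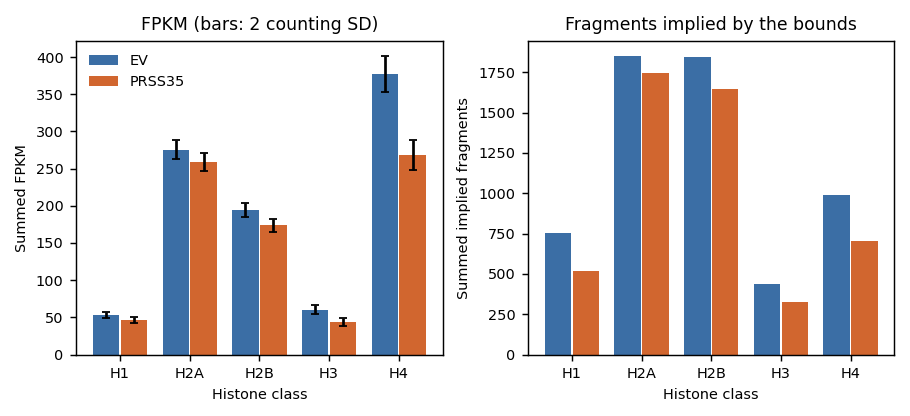
Summed FPKM (left, with bars of 2 counting SD) and summed implied fragments (right) of each histone class in EV (blue) and PRSS35 (orange), 1 library each. H4 is the highest class by FPKM, at 377.4 and 268.6, and H2A by fragments, and all EV bars stand above their PRSS35 bars on this scale, though not after division of FPKM by its library sum.

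Counted in fragments, the make-up of the classes was different. H4 held 39.3% of the histone FPKM in EV but 16.8% of the implied fragments, since 1 fragment of so short a gene is worth more FPKM. The log2 ratios of the implied fragments, with no scaling between the libraries, were -0.48 for H4, -0.42 for H3, -0.09 for H2A, -0.16 for H2B and -0.55 for H1. The H1 ratio rests on HIST1H1C, with 739 fragments in EV and 501 in PRSS35. Its row spans 732 bases in both and was annotated in EV and assembled in PRSS35. The bounds implied an effective length of 455 and 352 bases, where the line above gives 459 and 457, and a shorter assembled transcript cannot be told apart from bounds that hold further error.

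FPKM and implied fragments also lay apart in HIST3H2A, whose row spans 496 bases in both libraries and was assembled in EV and annotated in PRSS35. Its FPKM was 101.5 and 83.6 with bounds that did not overlap, while the bounds implied 558 and 557 fragments. The implied effective length was 176 and 214 bases, against 223 and 221 by the line, and as for HIST1H1C the implied fragments of the assembled row may be too low. HIST2H2AA3 had a higher FPKM in PRSS35, 50.6 against 45.1, from an implied 340 fragments against 359. HIST1H2BD had 28.9 and 21.8 FPKM from 204 and 183 fragments. For HIST1H4J, assembled in both, fragments and FPKM went together, with 312 and 241 fragments, as they did for HIST1H4K with 316 and 233, for HIST1H2BK with 1131 and 982, and for HIST2H4A with 140 and 78.3.

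Over the 43 expressed members above 0 in both libraries, 29 had fewer implied fragments in PRSS35 and 29 had a lower FPKM. The log2 ratio of the fragments and that of FPKM lay over 0.2 apart for 6 of the 10 members whose row was assembled in only 1 library, and for 4 of the other 33. The median log2 ratio of fragments was -0.21. All 10 members in this set with bounds apart and lower had fewer implied fragments, HIST3H2A by about 1.

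**Figure D5:**
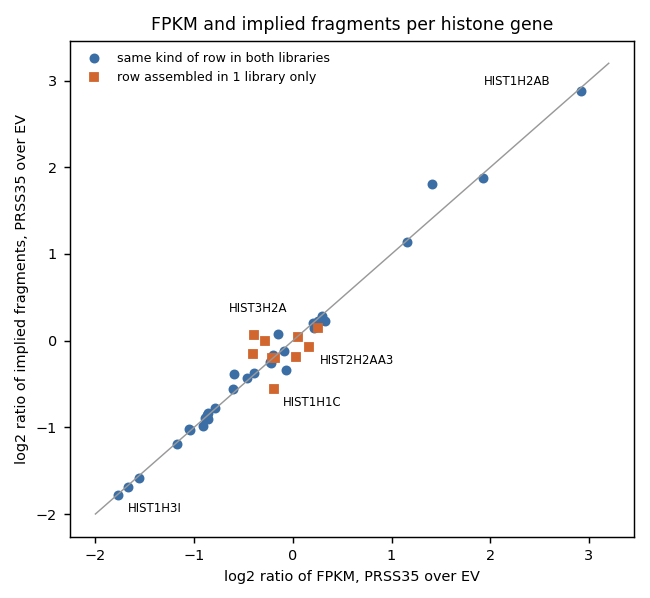
log2 ratio of implied fragments against log2 ratio of FPKM (PRSS35 over EV, nothing added) for the 43 expressed histone genes above 0 in both libraries, with the diagonal in grey. Orange squares, genes whose row was assembled in 1 library only, lie off the diagonal more often than blue circles, with HIST1H1C below it at -0.56 against -0.19 and HIST3H2A above it at 0 against -0.28.

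Members whose row kept the annotated structure in both libraries comprised 17 expressed genes, of which 11 had a lower value, with a median of -0.19. Members assembled in both comprised 16, of which 12 had a lower value, with a median of -0.41. In the 7 assembled in PRSS35 only the median was 0.03, with 3 lower, and in the 4 assembled in EV only it was -0.20, with 4 lower.

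Near-identical copies bear on single genes of this family. The first 90 coding bases of 4 H4 genes, read from the hg19 sequence on the coding strand, show genes from identical to most different, with capitals for bases that differ from HIST1H4J.

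HIST1H4J: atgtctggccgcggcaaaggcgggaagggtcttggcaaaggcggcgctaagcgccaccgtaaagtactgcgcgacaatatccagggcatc

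HIST1H4K: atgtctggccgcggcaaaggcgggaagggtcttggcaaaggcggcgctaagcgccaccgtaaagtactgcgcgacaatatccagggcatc

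HIST2H4A: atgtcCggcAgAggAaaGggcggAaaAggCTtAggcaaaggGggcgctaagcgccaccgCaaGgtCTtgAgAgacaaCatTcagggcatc

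HIST1H4C: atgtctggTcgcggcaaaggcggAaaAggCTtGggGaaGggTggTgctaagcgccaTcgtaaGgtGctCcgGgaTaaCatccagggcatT

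Over all 309 coding bases, HIST1H4K differed from HIST1H4J at 0 bases, HIST2H4A at 45 and HIST1H4C at 61. The other identical pairs were HIST2H4A with HIST2H4B, HIST2H3A with HIST2H3C and HIST2H2AA3 with HIST2H2AA4, and in EV each of these 3 pairs had the same FPKM in both copies. Reads that lie within the coding sequence of such copies cannot be told apart, so sums are given for each pair. HIST1H4J and HIST1H4K together had 272.7 FPKM in EV and 202.2 in PRSS35, a log2 change of -0.43. HIST2H4A and HIST2H4B had 79.0 and 43.4, a change of -0.85. HIST2H3A and HIST2H3C had 15.2 and 8.30, a change of -0.80.

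The H2A pair HIST2H2AA3 and HIST2H2AA4 went from 90.2 to 96.7, a change of 0.10, and was the only one of the 4 pairs with a higher sum in PRSS35. Both rows were annotated in EV and assembled in PRSS35. Their implied fragments went from 359 to 340 and from 359 to 314, though the number may be too low for an assembled row. In PRSS35 the row of HIST2H2AA4 also overlapped that of HIST2H2BC. In all, 10 members shared at least 80% of their 50-base stretches of coding sequence with another member, held 49.3% of the histone FPKM in EV, and had a median change of -0.43 with 7 lower. The 32 members with no shared stretch included 16 expressed ones, of which 13 had a lower value, with a median of -0.19. HIST1H4C, the H4 gene farthest from HIST1H4J among those shown, had 10.6 (bounds 7.15 to 14.1) in EV and 13.0 (bounds 9.16 to 16.9) in PRSS35 and was the only expressed H4 gene with a higher value.

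Some rows ran past the stem-loop. For 10 members the row ended more than 100 bases behind it in a library, among them HIST1H2BK by 8073 bases, HIST1H2BD by 12746 and HIST1H2AC by 14246 in EV. These 10 held 22.2% of the histone FPKM in EV and had a median of 10.3 FPKM there, while the 50 others with a stem-loop had a median of 3.50. The median change was -0.15 in the 9 expressed members of the first kind and -0.34 in the 32 of the second. HIST1H4I, at 7.36 and 4.88 FPKM, lies inside the row of HIST1H2BK, and the kit does not mark strand, so reads of the overlap may count for either.

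Of the 73 members, 3 had no value of their own in at least 1 library. HIST1H2AD and HIST1H3D shared a row, with 5.72 FPKM (bounds 4.58 to 6.87) in EV and 4.25 (bounds 3.26 to 5.25) in PRSS35. HIST1H2BO shared a row with the olfactory receptor gene OR2B6 in EV, at 4.94, and had its own in PRSS35, at 4.20.

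Promoters of 60 members were found in RefSeq (GRCh38.p14), 1 window for each gene from 250 bases before to 50 behind the start, and where a member had more than 1 the window nearest to its start codon. TATAAA was present on either strand in 66.7% of them, against 12.0% of all 27305 promoters. CCAAT was present in all promoters of H1, H2A, H2B and H3 genes and in 2 of 11 of H4, against 35.7% of all promoters. The octamer ATTTGCAT, the site known for POU2F1 (Oct-1), was in 11 of 15 H2A and 12 of 16 H2B promoters and in 0 of 6 H1, 12 H3 or 11 H4 promoters, against 1.80% of all. Windows of neighbouring H2A and H2B genes can overlap, as those of HIST1H2AG at chr6:27132793-27133092 and HIST1H2BJ at chr6:27132746-27133045 do. A site of any motif in such an overlap was counted once for each gene, so the H2A and H2B counts are not independent. AAACACA, known from H1 gene promoters, was in 6 of 6 H1, 2 of 12 H3, 1 of 15 H2A and none of the H2B and H4 promoters, against 5.76% of all.

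The promoter of HIST1H2BK, the highest H2B gene, that of HIST1H2BE, an H2B gene listed at 0 in EV and at 0.403 in PRSS35, and that of HIST1H4J are shown to set motif content beside level. Matches to any of the 4 motifs on either strand are in capitals. The windows lie at chr6:27146806-27147105 on the minus strand, chr6:26183511-26183810 on the plus strand and chr6:27823842-27824141 on the plus strand of GRCh38.p14.

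HIST1H2BK: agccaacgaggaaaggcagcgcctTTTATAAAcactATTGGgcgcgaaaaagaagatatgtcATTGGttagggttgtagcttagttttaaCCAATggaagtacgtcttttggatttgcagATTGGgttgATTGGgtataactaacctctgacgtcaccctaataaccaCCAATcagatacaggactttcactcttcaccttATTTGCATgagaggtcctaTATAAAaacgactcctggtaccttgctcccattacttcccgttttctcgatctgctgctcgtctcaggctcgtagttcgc

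HIST1H2BE: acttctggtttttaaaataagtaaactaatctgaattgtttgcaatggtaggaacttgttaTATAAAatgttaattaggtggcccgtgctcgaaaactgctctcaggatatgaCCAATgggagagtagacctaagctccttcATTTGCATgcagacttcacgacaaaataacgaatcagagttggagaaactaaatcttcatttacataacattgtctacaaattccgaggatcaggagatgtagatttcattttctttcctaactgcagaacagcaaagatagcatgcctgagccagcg

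HIST1H4J: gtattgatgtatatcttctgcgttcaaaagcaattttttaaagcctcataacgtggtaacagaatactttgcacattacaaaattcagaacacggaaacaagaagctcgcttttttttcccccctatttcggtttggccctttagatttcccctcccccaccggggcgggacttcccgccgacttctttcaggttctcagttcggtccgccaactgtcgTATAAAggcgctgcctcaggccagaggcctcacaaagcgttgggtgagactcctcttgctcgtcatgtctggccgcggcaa

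HIST1H2BK and HIST1H2BE both held TATAAA as well as CCAAT and the octamer, at 112.7 and 0 FPKM in EV. HIST1H4J held TATAAA only, at 134.4. These genes were chosen with their levels known, so that nothing about motif and level follows from them.

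The factors that act on histone genes and their transcripts showed no 2-fold change. Of 19 genes on this list 14 were expressed, 7 with a higher and 7 with a lower value, with a median of -0.01. SLBP, which binds the stem-loop, was at 19.2 FPKM (bounds 17.9 to 20.6) in EV and 20.2 (bounds 18.8 to 21.6) in PRSS35. NPAT, the coactivator of histone genes, was at 0.258 and 0.482, with bounds apart but below the mean of 1 FPKM. LSM10, a subunit of the U7 ribonucleoprotein, was the highest at 245.9 (bounds 239.0 to 252.9) and 210.7 (bounds 199.9 to 221.6), and was the only expressed gene of the list whose bounds did not overlap. SRRT (ARS2), which binds the cap complex, had 72.2 and 70.6.

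Histones that are made outside S phase as well, from genes with other names, had a median change above that of all expressed genes, at 0.17 against 0.06. Single genes of this list lay on either side of 0.06. Of 12 such genes 10 were matched and 9 expressed, 7 with a higher and 2 with a lower value in PRSS35 and 0 past 2-fold. Of all 10133 expressed genes, 6149 had a higher value. H2AFZ (H2A.Z) was at 415.2 (bounds 395.9 to 434.5) and 467.6 (bounds 458.0 to 477.2). H2AFV, the second H2A.Z gene, had 147.4 and 224.6 with bounds apart. H2AFX (H2A.X), whose transcript can also end in the stem-loop, had 481.2 (bounds 460.2 to 502.2) and 393.3 (bounds 375.9 to 410.6), and was the only gene of the list that was lower with bounds apart.

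Histone chaperones, which carry and deposit histones, had 9 higher and 9 lower values among 18 expressed genes, with a median of 0.05 and 0 past 2-fold. The highest were SSRP1 of the FACT complex, at 125.4 and 136.8, and ASF1B, at 86.4 and 85.6. NASP, a chaperone of H3 and H4, had 32.5 and 44.7 with bounds apart. The S phase genes comprised 18 expressed of 19 matched, of which 11 had a higher and 7 a lower value, with a median of 0.07 and 0 past 2-fold. The highest, thymidine kinase TK1 and the helicase subunit MCM5, had 348.5 and 382.7, and 204.5 and 189.8. Bounds were apart for 6 with a higher value, PCNA, MCM3, CDC6, TYMS, CDC45 and TK1, and for 3 with a lower value, E2F1, CDT1 and MCM6. These are 33.3% and 16.7% of the 18 genes, near the 24.7% and 14.3% of all expressed genes. E2F1 had 134.1 and 91.6 and CDT1 138.8 and 95.6, while TYMS had 135.4 and 169.5 and CDC45 22.7 and 29.5. The part of S phase cells in the histone values was not tested.

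Other genes within the HIST1 cluster lay higher than the histone genes in the change of FPKM. Between the first and the last HIST1 gene, chr6:25726291-27861669 of hg19, 30 non-histone names lie and 10 were expressed. All 10 had a higher value in PRSS35, with a median of 0.29, against 6149 of all 10133 expressed genes with a higher value. For 6 the bounds did not overlap, where 24.7% of all expressed genes were higher by that rule. With FPKM divided by its library sum, 9751 of all expressed genes had a higher value. On that scale the median of these 10 neighbours was 0.73 and that of the 34 expressed HIST1 members 0.35, with 9 of these 34 at a lower value. The largest was PRSS16, a serine protease gene of the thymus, which rose from 8.30 (bounds 7.54 to 9.07) to 18.4 (bounds 16.5 to 20.4), a log2 change of 1.06. HFE, the iron regulator, had 3.47 and 7.06. The 34 expressed HIST1 members had 24 lower values and a median of -0.19, and the 9 expressed HIST2 members on chromosome 1 had 5 lower values and a median of -0.73. With 1 member of each identical pair, 3 of 6 HIST2 members had a lower value and the median was -0.35.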

How the data were processed

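RNA of EV and PRSS35 cells was sequenced with 1 library each, using an unstranded kit. The authors aligned reads to hg19 with TopHat2 2.1.0 and, per the submitters' notes and methods, ran the 2.2.1 release of Cufflinks with Cuffdiff. The deposited values are FPKM per locus with bounds, used as deposited; the depth is not given and was estimated from the bounds, and no counts were used. The assembly options and annotation release are not given in the sources used here.

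FPKM of rows of the same name was summed, rows on contigs were left out and joined rows were kept apart. Genes averaging 1 FPKM or more over the libraries were called expressed, and changes were called at 2-fold after adding a pseudocount of 1 FPKM. Implied fragments are the square of 2 times FPKM over its distance to the upper bound. The counting SD of a class total adds in quadrature the bound widths of its members. The exact interval of a ratio of fragments is Clopper-Pearson on rounded fragments. The script was tested on simulated data. Sequences came from GRCh37, the assembly of hg19, with GENCODE v44lift37, where 68 members matched by symbol, 2 by position and 3 not at all. Promoters came from RefSeq (GRCh38.p14).

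Named genes were PRSS35, the 4 highest members of each class, the 5 largest changes in each direction, members at 0 in 1 library that reached 1 FPKM in the other, members in joined rows, and from each list the 2 highest genes with SLBP and NPAT. Other genes were named after their values were seen. The members and lists were chosen with earlier results of these data known. Alternatives comprised pseudocounts of 0.1 and 5 FPKM, 3 scalings, other row choices, other filters and a 1.5-fold threshold. Implied fragments in place of FPKM, leaving out HIST1H4J and HIST1H4K, bounds divided by the library sum, and 1 member of each identical pair were added after the data were seen. Protein sequences were not used here. The scripts ran on Python 3.11.15 with pandas 2.3.3, scipy 1.17.1, matplotlib 3.10.9 and numpy 2.4.6.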

Additional observations from a re-analysis of the deposited data

How the results depend on the processing

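With 1 library per condition, no difference could be set against a spread between replicates, and a low gene rests on few fragments. No paired analysis was possible because there was 1 library per condition and no test was run. A median was counted as moved beyond 0.1 on the log2 scale, a gene or class beyond its counting SD and a count beyond 1.5 times. The division of FPKM by its library sum changed most. It gave 0 members lower by 2-fold. A lower value was left for 14 of 44 members and for 382 of all 10133 expressed genes. The member median became 0.35, below the 0.61 of all expressed genes. By 2-fold, 740 of all expressed genes were higher and 94 lower. The log2 ratios of the class totals became 0.52 for H1, 0.62 for H2A, 0.54 for H2B, 0.25 for H3 and 0.22 for H4. Of the named genes that turned from a lower value beyond their counting SD to a higher one, HIST1H1C came to 0.50, HIST3H2A to 0.42, HIST1H2BK to 0.49, HIST1H2BD to 0.28, HIST1H4K to 0.24, HIST1H4J to 0.31, LSM10 to 0.48, H2AFX to 0.42 and MCM5 to 0.60. HIST1H2BJ, HIST1H3J, HIST1H3G, SRRT and ASF1B, whose change lay within the counting SD before, came to 0.55, 0.53, 0.44, 0.66 and 0.68. Centring on the median change gave -0.15 for H2A and -0.23 for H2B. A pseudocount of 0.1 FPKM gave 4 members higher and 7 lower by 2-fold, with 260 and 234 of all expressed genes. A pseudocount of 5 FPKM gave 0 and 0, with 91 and 90 of all expressed genes. A mean FPKM of at least 5 also gave 0 and 0, with 16 of 24 members at a lower value, and 106 and 95 of all genes. A 1.5-fold threshold gave 4 members higher and 14 lower, and 438 and 360 of all genes. Without a filter the member median was -0.032. With only members annotated in both libraries, 11 of 17 had a lower value, and the class totals came to 0.0051 for H1, -0.21 for H2A, 0.13 for H2B and -0.67 for H4. That choice leaves out HIST1H1C, HIST3H2A and HIST1H2BK, which held 98.0%, 36.8% and 57.8% of their class totals in EV. It also leaves out HIST1H4K and HIST1H4J, which together held 72.25% of the H4 total there. These 4 values therefore rest on the remaining members and are no check of the full class totals. Without HIST1H4J and HIST1H4K the H4 total was at -0.66, and implied fragments in place of FPKM gave -0.55 for H1. Scaling by the upper quartile, the highest row of a name and the handling of joined rows moved no value printed here beyond these limits.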
